A study of Drosophila melanogaster with 4 samples.

Results

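The 8 genes described here, *twe*, *bol*, *Rbp4*, *fest*, *CycA*, *CycB*, *rux* and *orb2*, were chosen by name as genes of meiotic entry and its translational control, out of the 13771 genes whose transcripts were in the table of counts. They and the gene lists used below were chosen with earlier results of these data known. The RNA came from pooled testes of 5-day-old males, with 2 libraries from *sws1* mutants and 2 from WT flies (Canton S). *sws1* is an allele of *swiss cheese*, the ortholog of the human phospholipase gene *PNPLA6*. Whether the *sws1* stock shares the genetic background of Canton S is not given in the sources used here. The question behind the comparison was how the testis transcriptome differs between the mutant and WT.

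Male meiosis in *Drosophila* starts from spermatocytes that transcribe their cell cycle genes long before they divide. Many of these messages are stored and kept silent by RNA-binding proteins until the cell enters division. Entry is then driven by Cdk1 with its cyclins, once the meiotic Cdc25 phosphatase Twine removes the inhibitory phosphates. Of the 8 genes, *orb2*, *bol*, *Rbp4* and *fest* encode regulators of translation, *twe* encodes Twine, *rux* an inhibitor of the cyclin A kinase, and *CycA* and *CycB* the cyclins.

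The libraries held 2364636 and 2218335 counts in *sws1* and 4498060 and 2692475 counts in WT, so that WT replicate 1 was the deepest. Counts were summed over all transcripts of a gene, scaled by the TMM method and expressed as CPM, that is, relative to the size of the library. Genotypes were compared with the quasi-likelihood test of edgeR, whose log2 fold changes (log2FC, *sws1* over WT) are given with a standard error (SE). A gene counted as called with an adjusted p below 0.05 and a log2FC above 0.3 in size. Adjusted p-values are Benjamini-Hochberg values over all genes tested, which were 9634 genes where no other setting is named. The mutated gene itself, *sws*, had 166 and 179 counts in *sws1* testes and 662 and 500 counts in WT testes. Scaled to the libraries, this was 66.2 and 78.0 CPM in *sws1* and 156 and 196 CPM in WT (log2FC −1.28, adjusted p = 2.12e-06, edgeR).

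All 8 genes had enough counts to be tested. *orb2* was lower in *sws1* testes and *CycB* was higher, and the other 6 were not called. The 8 genes thus gave 1 call in each direction. Over all genes tested, 9.38% were called higher and 11.5% were called lower in *sws1*. The median log2FC of the 8 genes was −0.07, against 0.02 for all genes tested. In bulk testis RNA, fewer cells of a type and less RNA per cell cannot be told apart.

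**Figure D1:**
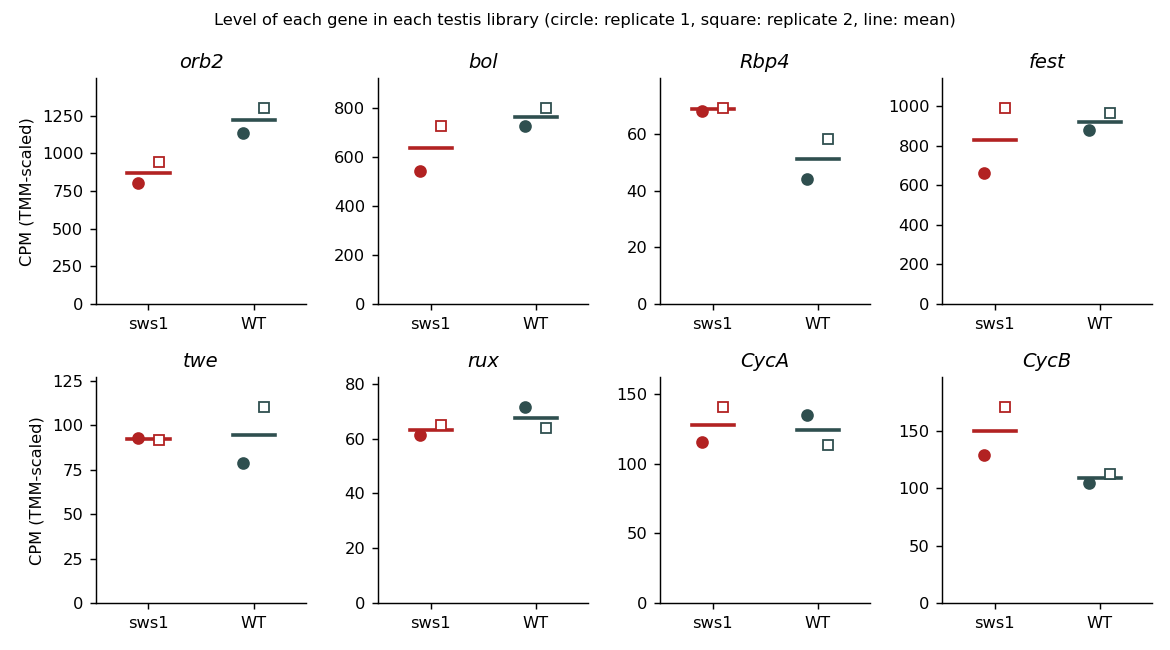
TMM-scaled CPM of each of the 8 genes (vertical axis, from 0) in the *sws1* and WT libraries, with circles for replicate 1, squares for replicate 2 and a line at the mean. The libraries of the genotypes are apart for *orb2* (lower in *sws1*) and for *CycB* and *Rbp4* (higher in *sws1*), and they overlap for the other 5 genes. Among all genes tested, both *sws1* libraries were above both WT libraries in 31.3% and below them in 28.9%.

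*orb2* encodes a cytoplasmic polyadenylation element binding (CPEB) protein, which binds messages in their 3′ ends and sets when they are translated, and which the male germline needs for the meiotic divisions and spermatid differentiation. The gene (FBgn0264307) lies on the minus strand of 3L, from 8937100 to 8954463 in the BDGP6 annotation, which gives all positions here. It had 2007 and 2157 counts in *sws1* testes and 4831 and 3324 counts in WT testes. Its level was 801 and 940 CPM in *sws1*, against 1135 and 1301 CPM in WT. Both *sws1* libraries were below both WT libraries, as they were in 28.9% of all genes tested.

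The mean of *orb2* was 871 ± 98.5 CPM in *sws1* and 1218 ± 117 CPM in WT (SD, n = 2 each). This gave a log2FC of −0.48 (SE 0.11, edgeR adjusted p = 0.00216), or 0.715 times the WT level with a 95% interval from 0.614 to 0.833. DESeq2 gave a log2FC of −0.50 and an adjusted p of 0.000655. *orb2* was called lower in all 11 alternative fits made at the level of genes, with a log2FC between −0.60 and −0.37 when each library was left out in turn.

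The 5′ exons of *orb2* are shared with *CG43783*, a gene on the same strand that reaches from 8932235 to 8954272. Between 883 and 979 exon bases of *orb2-RB*, *orb2-RC*, *orb2-RD* and *orb2-RH* are also exon bases of *CG43783*, while *orb2-RA* shares none. The assignment of reads to these genes in the shared part is therefore uncertain. *CG43783* itself had 242 and 218 CPM in *sws1* and 254 and 298 CPM in WT, with a log2FC of −0.26 (SE 0.12, edgeR adjusted p = 0.131). With the counts of both genes added together, an alternative chosen after seeing the data, the log2FC of *orb2* was −0.44 (adjusted p = 0.00313, edgeR).

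*bol* encodes Boule, the fly member of the DAZ family of RNA-binding proteins, which is required for the translation of *twe*. It lies on the minus strand of 3L, from 9097629 to 9134405. *bol* had 1359 and 1673 counts in *sws1* testes and 3097 and 2049 in WT testes, which came to 542 and 729 CPM in *sws1* and to 728 and 802 CPM in WT. The *sws1* libraries differed from each other by a factor of 1.34, and *sws1* replicate 2 reached the range of WT. The means were 636 ± 132 CPM in *sws1* and 765 ± 52.4 CPM in WT (SD, n = 2 each), and the log2FC of −0.27 was not called (SE 0.13, edgeR adjusted p = 0.153). Its 95% interval ran from 0.690 to 1.001 times the WT level.

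*fest* encodes a partner protein of Rbp4, and both are known to keep the *CycB* message repressed in immature spermatocytes. *fest* (2R, plus strand, 19341809 to 19345754) lies within the span of *Rgk1* on the opposite strand and shares no exon bases with it. It had 1667 and 2277 counts in *sws1* and 3737 and 2468 in WT. The level of 665 CPM in *sws1* replicate 1 was below WT, where it was 878 and 966 CPM, and the 993 CPM in *sws1* replicate 2 was above WT. The log2FC was −0.15 (SE 0.19, edgeR adjusted p = 0.638), with an interval from 0.647 to 1.25 times the WT level.

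The calls for *bol* and *fest* turned on a single library. Without *sws1* replicate 2, both genes were called lower, with a log2FC of −0.50 for *bol* (adjusted p = 0.000129) and of −0.47 for *fest* (adjusted p = 0.000172, edgeR). Without *sws1* replicate 1, the values were −0.07 for *bol* (adjusted p = 0.742) and 0.11 for *fest* (adjusted p = 0.529, edgeR). In these fits the single library of a genotype is assumed to vary like those of the other.

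*Rbp4* encodes the spermatocyte RNA-binding protein that binds the *CycB* message. It has 1 annotated transcript, with 5 exons, on the minus strand of 3R (13654556 to 13656394). There were 171 and 159 counts in *sws1* testes and 188 and 149 counts in WT testes, the fewest in WT among the 8 genes. Scaled to the libraries, this was 68.2 and 69.3 CPM in *sws1* and 44.2 and 58.3 CPM in WT. Both *sws1* libraries were above both WT libraries, as they were in 31.3% of all genes tested.

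*Rbp4* averaged 68.8 ± 0.758 CPM in *sws1* and 51.3 ± 9.997 CPM in WT (SD, n = 2 each). The log2FC of 0.44 was not called (SE 0.17, edgeR adjusted p = 0.0724), and its 95% interval ran from 1.06 to 1.74 times the WT level before adjustment for the number of genes. It was called higher with upper-quartile scaling (adjusted p = 0.0367) and without WT replicate 2 (adjusted p = 0.0314, edgeR). DESeq2 gave an adjusted p of 0.480.

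*twe* (2L, minus strand, 16259414 to 16261877) encodes the Cdc25 phosphatase that germ cells use for meiosis. It had 232 and 210 counts in *sws1* and 335 and 282 in WT, or 92.6 and 91.5 CPM in *sws1* and 78.7 and 110 CPM in WT. The *sws1* libraries lay between the WT libraries, which were themselves apart by a factor of 1.40. The log2FC was −0.02 (SE 0.16, edgeR adjusted p = 0.934), and the 95% interval allowed levels from 0.779 to 1.24 times WT. The gene overlaps *EndoGI* on the opposite strand by 98 exon bases. The libraries were made with a directional kit, but the strand setting of the counting is not given in the sources used here. If strand was ignored in the counting, reads there could belong to either gene.

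*rux* (X chromosome, minus strand, 6035753 to 6037800) encodes Roughex, an inhibitor of the cyclin A kinase that keeps male germ cells from an extra division after meiosis. It had 61.5 and 64.9 CPM in *sws1* and 71.7 and 63.8 CPM in WT, from 154 and 149 counts in *sws1* and 305 and 163 counts in WT. *sws1* replicate 2 lay between the WT libraries. The log2FC was −0.11 (SE 0.16, edgeR adjusted p = 0.686), with an interval from 0.740 to 1.17 times the WT level.

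*CycA* (3L, minus strand, 11826719 to 11833578) encodes cyclin A, which pairs with Cdk1 ahead of division. It had 289 and 323 counts in *sws1* and 573 and 290 in WT, or 115 and 141 CPM in *sws1* and 135 and 114 CPM in WT. The libraries of the genotypes alternated in order. The log2FC was 0.04 (SE 0.14, edgeR adjusted p = 0.883), with an interval from 0.836 to 1.26 times the WT level. Within the span of *CycA* lies *CG7264* on the opposite strand, which shares no exon bases with it and was lower in *sws1* (log2FC −0.40, adjusted p = 0.0119, edgeR).

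*CycB* (FBgn0000405, 2R, minus strand, 22803521 to 22806948) encodes cyclin B, the other partner of Cdk1 at the entry into division, whose message is the target of Rbp4 and Fest. It had 324 and 392 counts in *sws1* testes and 444 and 288 in WT testes. Scaled to the libraries, this came to 129 and 171 CPM in *sws1* and to 104 and 113 CPM in WT. Both *sws1* libraries were thus above both WT libraries, as they were in 31.3% of all genes tested. The means were 150.1 ± 29.4 CPM in *sws1* and 109 ± 5.93 CPM in WT (SD, n = 2 each). *CycB* was the 1 gene of the 8 called higher, with a log2FC of 0.47 (SE 0.15, edgeR adjusted p = 0.0245), or 1.38 times the WT level with a 95% interval from 1.12 to 1.71.

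The call for *CycB* was lost in 3 alternative fits. DESeq2 gave a log2FC of 0.45 with an adjusted p of 0.173. Neither was it called without *sws1* replicate 2 (log2FC 0.25, adjusted p = 0.364) or without WT replicate 1 (log2FC 0.41, adjusted p = 0.110, edgeR). The log2FC of *CycB* was positive in all 10 alternative fits, and the gene was called in the other 7.

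**Figure D2:**
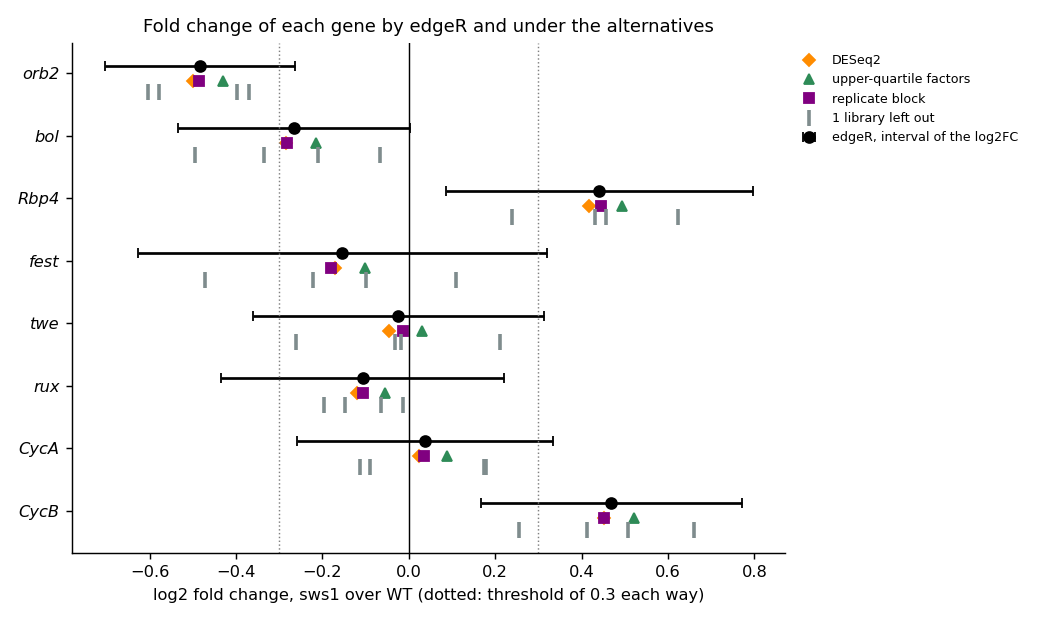
log2FC of each gene (horizontal axis, *sws1* over WT), with black points and bars for edgeR and its 95% interval, coloured symbols for DESeq2, upper-quartile scaling and the replicate block, and grey ticks for fits without 1 library. All symbols of *orb2* lie below −0.3 and those of *CycB* and *Rbp4* lie above 0, while the ticks of *bol* run from −0.50 to −0.07 and those of *fest* from −0.47 to 0.11.

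Per length of transcript, the 8 genes fell into a high and a low group in both genotypes. Counts on each transcript were divided by its length and summed over the gene, in CPM per kb. *bol* had 318 ± 62.3 in *sws1* and 380 ± 26.2 in WT, *orb2* had 266 ± 24.4 in *sws1* and 363 ± 34.8 in WT, and *fest* had 266 ± 69.0 in *sws1* and 291 ± 19.6 in WT (SD, n = 2 each). Within this high group, neighbours in the order differed by less than their spread in *sws1*, and *bol* and *orb2* did so in WT.

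The low group held the phosphatase, the inhibitor, both cyclins and *Rbp4*. In CPM per kb, *CycB* stood at 57.0 ± 11.2 in *sws1*, above *CycA* (49.5 ± 6.67), *twe* (47.9 ± 0.523), *Rbp4* (45.4 ± 0.500) and *rux* (44.5 ± 1.74). In WT the order was *twe* (50.0 ± 12.7), *rux* (48.3 ± 4.73), *CycA* (47.6 ± 5.46), *CycB* (41.2 ± 2.25) and *Rbp4* (33.8 ± 6.60). *CycB* was thus at the top of the low group in *sws1* and next to the bottom in WT. Neighbours in these orders differed by less than the larger of their SDs, except *twe* and *Rbp4* in *sws1*, and *CycA* and *CycB*, and *CycB* and *Rbp4*, in WT. Levels of different genes compare only roughly here, since how the counting treated reads that fall on several transcripts is not given in the sources used here.

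Ratios of counts within a library do not depend on the scaling. For each count on *CycB* there were 6.19 and 5.50 counts on *orb2* in *sws1*, against 10.9 and 11.5 in WT. *bol* had 4.19 and 4.27 counts for each count on *CycB* in *sws1*, against 6.98 and 7.11 in WT. *fest* had 5.15 and 5.81 in *sws1* and 8.42 and 8.57 in WT. In these ratios the replicates of each genotype were close together and the genotypes did not overlap, although *bol* and *fest* by themselves overlapped. The ratios of *twe*, *CycA* and *rux* to *CycB* were also lower in both *sws1* libraries than in WT. Their log2 differences (*sws1* minus WT) were −0.47, −0.41 and −0.55. *CycB* was itself called higher in these same libraries, which lowers each ratio to it in *sws1*. These ratios therefore give no separate evidence of a change in *bol*, *fest*, *twe*, *CycA* or *rux*, which were not called.

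On the log2 scale the difference between genotypes (*sws1* minus WT) was −0.94 for *orb2* over *CycB*, with a pooled SD of 0.10 between replicates. It was −0.74 for *bol* over *CycB* (SD 0.02) and −0.64 for *fest* over *CycB* (SD 0.09). Each SD rests on 2 libraries a genotype. *orb2* was called lower and *CycB* higher in these same libraries, so the first difference is not separate evidence of either change. The ratio of *orb2* to *Rbp4* was 11.7 and 13.6 in *sws1* and 25.7 and 22.3 in WT, a difference of −0.92 (SD 0.15). The ratio of *Rbp4* to *CycB* overlapped, with 0.528 and 0.406 in *sws1* and 0.423 and 0.517 in WT. Of the 28 pairs of the 8 genes, 18 had ratios that did not overlap between genotypes, including all 7 pairs with *orb2* and 6 of the 7 with *CycB*. Both genes were themselves called in these libraries, so their pairs are not separate evidence. Over all pairs of genes tested with a count in every library, 59.9% did not overlap, so 18 of 28 is close to the background. With 2 libraries against 2, an exact permutation test of a ratio cannot give a two-sided p below 0.333.

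**Figure D3:**
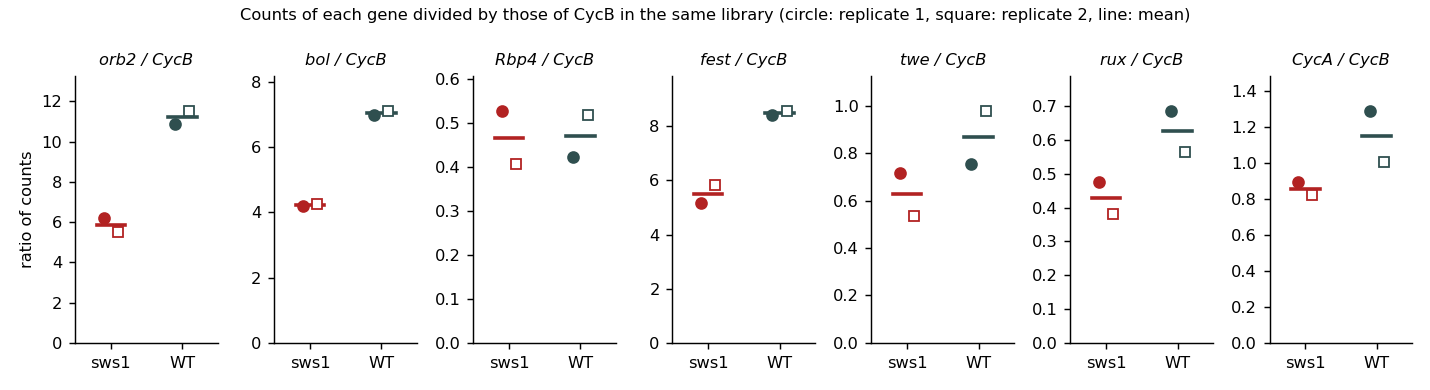
Counts of each gene divided by the counts of *CycB* in the same library (vertical axis, from 0), with circles for replicate 1, squares for replicate 2 and a line at the mean. *orb2*, *bol* and *fest* show close replicates, with 6.19 and 5.50, 4.19 and 4.27, and 5.15 and 5.81 counts per count on *CycB* in *sws1*, all below WT. *twe*, *rux* and *CycA* are below WT as well, and *Rbp4* overlaps. *CycB* was itself called higher in *sws1*, which lowers these ratios.

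In most genes, 1 annotated form was assigned most of the counts behind these sums. Such shares depend on how reads that fall on several forms were assigned, so they do not measure which form was most abundant. *bol-RB*, for example, has 0 bases outside *bol-RG*. *bol-RB*, which has 8 exons and a coding length of 684 bases, took 93.7% and 94.4% of the counts of *bol* in *sws1* and 89.3% and 93.7% in WT. *CycB-RA* took 98.5% and 94.6% in *sws1* and 95.0% and 100% in WT. Of the 4 annotated *CycB* transcripts, *CycB-RC* had 0 counts in each library, where 3 counts would be 0.676% to 1.04% of the gene's counts.

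For *orb2*, 5 of the 7 annotated transcripts were in the table. *orb2-RC* held 59.8% and 64.3% of the counts in *sws1* and 65.9% in each WT library. *orb2-RA*, which starts within the gene and has a shorter coding length (1653 against 2112 bases), held 27.0% and 22.6% in *sws1* and 22.0% and 22.7% in WT. The Wilson 95% interval in *sws1* replicate 1 was 25.1 to 28.9, above the 20.9 to 23.2 of WT replicate 1, but *sws1* replicate 2 (20.9 to 24.4) was within the range of WT. As single transcripts, *orb2-RC* had a log2FC of −0.56 (adjusted p = 0.212) and *orb2-RA* one of −0.33 (adjusted p = 0.278, edgeR over 14159 transcripts), so neither was called.

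The short form of *fest*, *fest-RB*, ends its 3′ UTR at 169 bases, against 1428 bases in *fest-RA*, with nearly the same coding length (1533 and 1539 bases). It took 9.06% of the *fest* counts in *sws1* replicate 1 (Wilson 95% interval 7.77 to 10.5) and 4.39% in *sws1* replicate 2 (3.62 to 5.31), against 3.59% (3.04 to 4.23) and 3.61% (2.94 to 4.42) in WT. Both *sws1* shares were above WT, but the interval of *sws1* replicate 2 overlapped those of WT. In CPM, *fest-RB* had 60.3 and 43.6 in *sws1* and 31.5 and 34.8 in WT, and its log2FC of 0.66 was not called (adjusted p = 0.302, edgeR).

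*CycA-RC*, the form with the longer 3′ UTR (933 bases, against 569 in *CycA-RA*), held 6.92% (Wilson 95% interval 4.52 to 10.4) and 13.6% (10.3 to 17.8) of the *CycA* counts in *sws1*, against 19.4% (16.3 to 22.8) and 12.8% (9.40 to 17.1) in WT. The shares overlapped between genotypes. These intervals cover counting error only, and they leave out the differences between libraries in how reads were divided among transcripts.

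**Figure D4:**
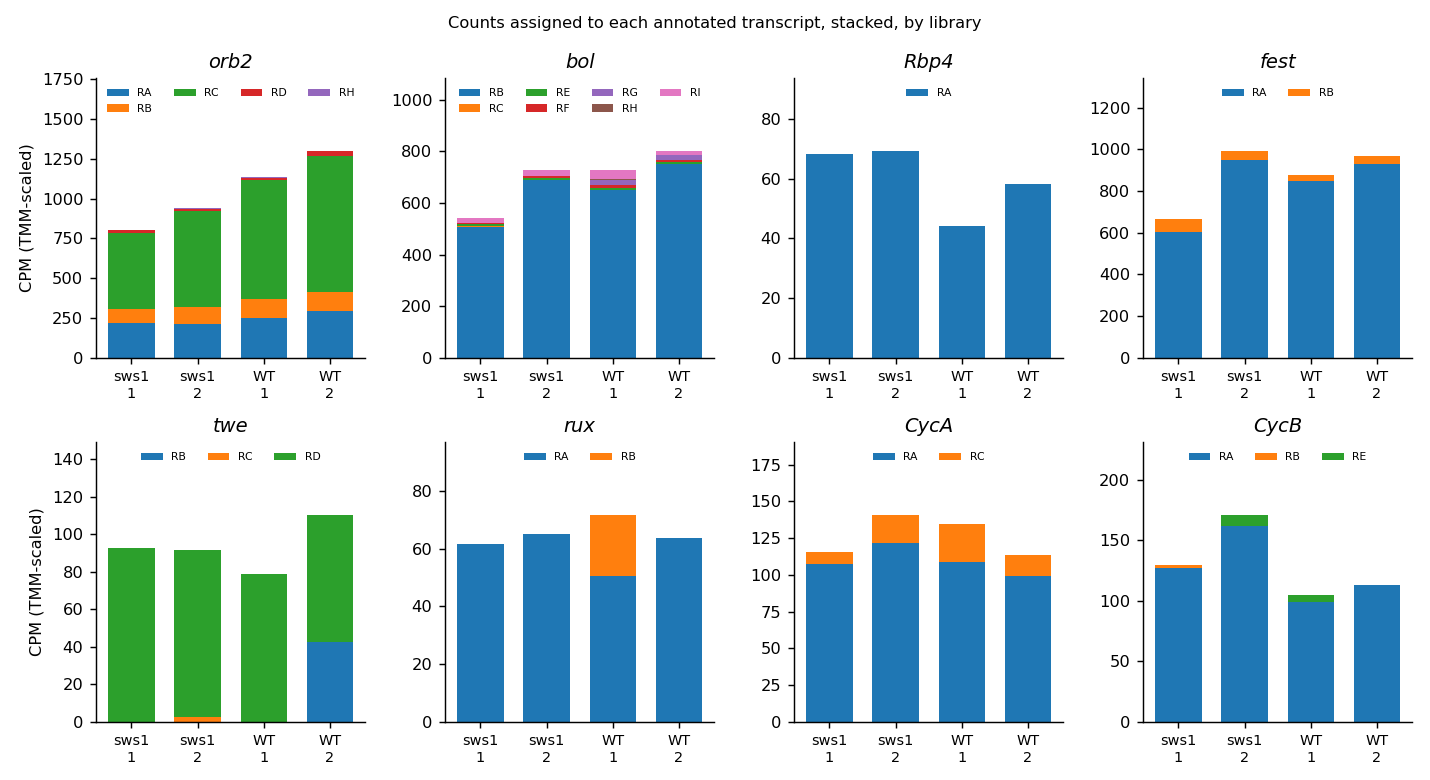
TMM-scaled CPM assigned to each annotated transcript (stacked colours) of the 8 genes in each library, *sws1* on the left. *bol-RB*, *fest-RA*, *CycA-RA* and *CycB-RA* carry most counts of their genes in every library, whereas *rux-RB* (WT replicate 1) and *twe-RB* (WT replicate 2) appear in 1 library each.

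The other genes of the meiotic cell cycle were taken from a list of 26 genes, all in the table, of which 24 had enough counts to be tested. In *sws1*, 4 of the 24 were higher and 1 was lower, where 9.38% of all genes tested were higher and 11.5% were lower. The median log2FC was 0.23, against 0.02 for all genes. *Cdk1*, the kinase of both cyclins, had 107 and 91.1 CPM in *sws1* and 94.7 and 86.1 CPM in WT and was not called (log2FC 0.13, adjusted p = 0.589, edgeR). *CycB3* (log2FC 0.41, adjusted p = 0.315) and the mitotic kinase gene *polo* (log2FC 0.34, adjusted p = 0.155, edgeR) were not called either, but both were called higher without WT replicate 2, and *CycB3* also without *sws1* replicate 1. *stg*, the Cdc25 gene of mitotic cells, had at most 10 counts in a library and could not be tested.

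The genes called higher were *aurB*, the kinase of the chromosomal passenger complex, *gwl* (Greatwall kinase), *mad2* of the spindle checkpoint, and *Cks30A*, which encodes a small Cdk-binding subunit. *aurB* had 13.2 and 14.4 CPM in *sws1* and 5.41 and 5.87 CPM in WT, a log2FC of 1.29 (SE 0.32, edgeR adjusted p = 0.00569), from 15 to 33 counts a library. *gwl* had a log2FC of 0.82 (adjusted p = 0.00797), *mad2* one of 0.58 (adjusted p = 0.0124) and *Cks30A* one of 0.58 (adjusted p = 0.0284, edgeR). The gene called lower was *endos*, whose protein inhibits the phosphatase PP2A once Greatwall has phosphorylated it. *endos* had 650 and 712 CPM in *sws1* and 963 and 805 CPM in WT (log2FC −0.38, adjusted p = 0.0133, edgeR). DESeq2 called 1 gene of this list, *endos*. Without WT replicate 1, edgeR called *aurB*, *mad2* and *Cks30A*, and without *sws1* replicate 2 it called 2 genes higher (*aurB* and *gwl*) and 3 lower (*endos*, *CycE* and *Incenp*). Without WT replicate 2, *mad2* and *Cks30A* were not called. *aurB* was called in each of the 4 fits without 1 library.

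Of a list of 27 other translational regulators, 26 were in the table and were tested. In *sws1*, 5 of the 26 were lower and 1 was higher, where 11.5% of all genes tested were lower and 9.38% were higher. The median log2FC was −0.10. *bru1*, which encodes the translational repressor Bruno, had 230 and 263 CPM in *sws1* and 441 and 463 CPM in WT, a log2FC of −0.88 (SE 0.11, edgeR adjusted p = 4.64e-06). *Syp*, an RNA-binding protein gene expressed at 1244 and 1477 CPM in *sws1* and 1857 and 1970 CPM in WT, had a log2FC of −0.49 (SE 0.10, edgeR adjusted p = 0.00119). *Rbp9*, a gene of the Elav/Hu family, had a log2FC of −0.38 (adjusted p = 0.0113, edgeR). These 3 were also the genes that DESeq2 called.

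The other calls in this list were *bgcn*, a partner of *bam* at the end of the spermatogonial divisions (log2FC −0.85, adjusted p = 0.0171), *eIF4G2*, a translation initiation factor needed for male meiosis (log2FC −0.39, adjusted p = 0.0248), and *mub*, which was higher (log2FC 0.55, adjusted p = 0.0155, edgeR). The testis cap-binding factor gene *eIF4E3* had 728 and 698 CPM in *sws1* and 848 and 881 CPM in WT. Its adjusted p was 0.0451 (edgeR), but its log2FC of −0.28 did not reach the fold threshold. *orb*, the other CPEB gene of the fly, had 196 and 235 CPM in *sws1* and 232 and 261 CPM in WT and was not called (log2FC −0.19, adjusted p = 0.295, edgeR). *bam* had 6.78 and 9.15 CPM in *sws1* and 7.76 and 5.87 CPM in WT, and was not called (log2FC 0.19, adjusted p = 0.757, edgeR). With each library left out in turn, edgeR called between 3 and 6 genes of the list lower and between 0 and 3 higher, and *bru1* and *Syp* were called in each of these fits. *bgcn* and *eIF4G2* were not called without *sws1* replicate 1 or without WT replicate 2, *mub* was not called without *sws1* replicate 2 or without WT replicate 2, and *Rbp9* was not called without WT replicate 1.

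**Figure D5:**
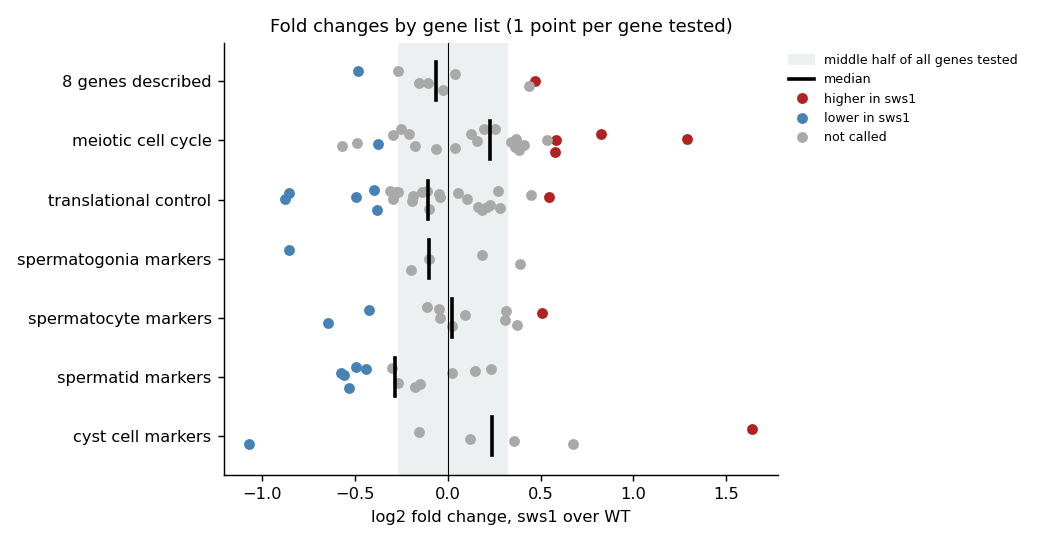
log2FC (horizontal axis, *sws1* over WT) of each gene tested in the 8 genes described, in both lists of related genes and in 4 lists of stage and cell markers, with black bars at the medians, red and blue points for genes called higher and lower by edgeR, and a grey band for the middle 50% of all genes tested. The median of the meiotic cell cycle list lies at 0.23 and that of the spermatid markers at −0.28.

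Markers of the germline stages were read in the same fit, where 9.38% of all genes tested were called higher and 11.5% were called lower. Of 11 spermatocyte markers tested, 1 was higher (*achi*) and 2 were lower (*can* and *sa*), with a median log2FC of 0.02, and their summed level was 909 and 886 CPM in *sws1* and 948 and 874 CPM in WT. Of 12 genes transcribed in spermatids, 5 were lower, with a median of −0.28 and a summed level of 5293 and 6354 CPM in *sws1* and 7853 and 7172 CPM in WT. More than any other gene, *w-cup* made up this sum, with 2795 and 3637 CPM in *sws1* and 4636 and 4096 CPM in WT. The number called lower fell to 1 (*c-cup*) without *sws1* replicate 1 and likewise without WT replicate 1, and was 2 with DESeq2 (*c-cup* and *w-cup*). Of 5 spermatogonial markers tested, 1 was lower, which was *bgcn*, a member of the list of translational regulators as well. Of 6 cyst cell markers, 1 was higher (*tj*) and 1 was lower (*ptc*). The calls of *achi*, *can* and *sa* were lost without WT replicate 1, that of *can* also without *sws1* replicate 2, that of *sa* also without *sws1* replicate 1, and those of *bgcn* and *ptc* without *sws1* replicate 1 or without WT replicate 2. The summed level of the spermatid markers was lower in both *sws1* libraries, as was *orb2*, and their part in the change of *orb2* was not tested.

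Markers of the glands and ducts of the male tract were mostly higher in *sws1*. The 12 accessory gland markers summed to 1221 and 499 CPM in *sws1* and 60.9 and 69.3 CPM in WT, with 7 of the 10 tested genes called higher, and between 7 and 12 with each library left out. Each of the 12 had counts in WT. The ejaculatory duct and bulb markers in the table summed to 323 and 261 CPM in *sws1* and 84.6 and 78.3 CPM in WT, with all 3 tested genes called higher. Of the 3 fat body markers tested 2 were higher, of 8 muscle markers 2 were higher, and of 5 hemocyte markers tested none was called. Among all genes tested, 9.38% were called higher and 11.5% were called lower. The part of these tissues in the values of the 8 genes was not tested. *sws1* replicate 1 was the lower of the *sws1* libraries for each of the 8 genes except *twe*. The share of all genes tested with this order was not computed, so this count has no background. The *sws1* libraries differed little for *Rbp4* (68.2 and 69.3 CPM) and *rux* (61.5 and 64.9 CPM). Without *sws1* replicate 1 the log2FC was −0.37 for *orb2* and 0.66 for *CycB*. Whether these values depend on the gland markers was not tested.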

How the data were processed

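RNA from pooled testes was depleted of ribosomal RNA, made into libraries with a directional kit and sequenced by the authors, with 2 biological replicates per genotype. The deposited values are raw counts of reads per annotated transcript, which the authors made by trimming with Trimmomatic, alignment with Hisat2 and counting with htseq-count. The genome release, the strand setting of the counting and the treatment of reads shared by isoforms or genes are not given in the sources used here. Reads shared by isoforms were not all dropped, since *bol-RB* has 0 bases outside *bol-RG* in the annotation and still held counts in every library. If shared reads were divided among isoforms, or if those shared by genes were dropped or split, the counts of isoforms and of overlapping genes would be uncertain or too low.

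The table held 29939 transcripts. Of these, 29929 matched the BDGP 6.54 annotation of Ensembl release 115 by identifier and were summed to 13771 genes. The other 10 were left out. Library totals ranged from 2218335 to 4498060 counts. Genes with enough counts were kept by filterByExpr in edgeR 4.0.16 (R 4.3.3), scaled by TMM and compared with robust quasi-likelihood tests over 9634 genes, with Benjamini-Hochberg adjustment. Calls required an adjusted p below 0.05 and an absolute log2FC above 0.3. Standard errors were derived from the F statistic, and intervals are 95% intervals. Transcripts were tested in the same way (14159 transcripts). The biological coefficient of variation was 0.106 for genes and 0.607 for transcripts. Wilson intervals of shares cover counting error only. Scripts were tested on simulated data.

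The alternatives were DESeq2 1.42.0, DESeq2 size factors, upper-quartile scaling, other filters on low counts, a stricter fold threshold, a replicate block, single transcripts, and leaving out each library. The genes named were the 8 members, their overlapping genes, and the called and core genes of the lists. The members and lists were chosen with earlier results of these data known. Marker lists covered the germline stages, cyst cells, muscle, hemocytes, fat body and the glands and ducts of the male tract. No batch is given in the labels. No sequences are printed, as no genome sequence was used here.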

Additional observations from a re-analysis of the deposited data

How the results depend on the processing

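Of the 8 genes, 1 was called higher and 1 lower by edgeR. The number called higher was 0 with DESeq2 and 2 with upper-quartile scaling (*CycB* and *Rbp4*), and it ranged from 0 to 2 when each library was left out, with 0 without *sws1* replicate 2 or without WT replicate 1 and 2 without WT replicate 2. The number called lower ranged from 1 to 3, with 3 (*bol*, *fest* and *orb2*) without *sws1* replicate 2. An absolute log2FC above 1 left 0 higher and 0 lower. Among 18 single transcripts tested, 0 were called higher and 0 lower, with 0 higher and 3 lower at an unadjusted p under 0.05. For gene sums, 2 were higher and 1 lower at that unadjusted level with edgeR, and 1 higher and 2 lower with DESeq2. The causes of these differences were not tested. With the replicate number as a replicate block, 1 gene was higher (*CycB*, adjusted p = 0.0218) and 1 lower (*orb2*, adjusted p = 0.00529, edgeR). Same-numbered libraries had deviations that correlated at −0.0077 over all genes tested. A single value over all genes cannot show whether same-numbered libraries shared a preparation.

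The log2FC ranged over the fits without 1 library from −0.26 to 0.21 for *twe*, −0.50 to −0.07 for *bol*, 0.24 to 0.62 for *Rbp4*, −0.47 to 0.11 for *fest*, −0.11 to 0.18 for *CycA*, 0.25 to 0.66 for *CycB*, −0.20 to −0.01 for *rux* and −0.60 to −0.37 for *orb2*. Upper-quartile scaling moved the median log2FC of all genes to 0.07 and turned the balance of all calls to 1111 higher and 938 lower, against 904 higher and 1109 lower with TMM. DESeq2 called 363 higher and 631 lower. With 2 libraries a genotype, and 149 to 573 counts a library on *Rbp4*, *rux*, *twe*, *CycA* and *CycB*, the 95% intervals bound the differences that could be resolved. On the log2 scale the widest was that of *fest*, from 0.647 to 1.25 times the WT level, where the *sws1* libraries differed by a factor of 1.49.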

Other observations

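A minor transcript of *bol*, *bol-RG*, had 0 and 4 counts in *sws1* and 77 and 52 counts in WT. This was 0% (3 counts would be 0.221%) and 0.239% of the *bol* counts in *sws1*, and 2.49% and 2.54% in WT, with Wilson 95% intervals of 1.99 to 3.10 and 1.94 to 3.31 in the WT libraries. *bol-RG* differs from *bol-RB* by 419 additional 5′ bases on 3L, from 9130356 to 9130774 (BDGP6). Of these bases, 167 lie in an annotated transposable element on the same strand and 166 are in no other transcript of *bol*. The difference was not called (adjusted p = 0.289, edgeR over all transcripts tested), and it was picked out after its values were seen.

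Other transcripts were seen in 1 library only. *twe-RB* had 108 counts in WT replicate 2 and 0 in each of the other libraries, where *twe-RD* held 232 and 204 counts in *sws1* and 335 counts in WT replicate 1. *rux-RB* had 90 counts in WT replicate 1 and 0 elsewhere.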
